A study of Mus musculus with 16 samples.

Results

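The expression of 9 glucocorticoid-responsive genes was compared between APOE3 and APOE4 brain endothelial cells. The genes were the glucocorticoid receptor gene Nr3c1 and 8 of its targets, Fkbp5, Tsc22d3, Zbtb16, Cebpd, Sgk1, Dusp1, Mt1 and Mt2. They were found in the count table by their Ensembl identifiers, which were given symbols with GENCODE release M21. They are 9 of 39057 rows of the table, and all 9 were among the 12481 genes that passed the filter on low counts. Each library came from the primary cortical endothelial cells of 1 mouse, a targeted replacement animal that carries a human APOE isoform under the mouse's own Apoe promoter. The APOE3 group and the APOE4 group held 8 libraries each, 4 from males (replicates 1 to 4) and 4 from females (replicates 5 to 8), from mice aged 21 to 28 days. Every culture was selected with 8 µg/ml puromycin, which kills most other brain cells, was grown to confluence at passage 0 and received no treatment. No wild-type or APOE2 cells were analysed here, so the 2 human isoforms are compared with each other.

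Glucocorticoids are steroid hormones that cross the cell membrane and bind the receptor encoded by Nr3c1, which is held in the cytoplasm by Hsp90 and its cochaperones. The bound receptor moves to the nucleus, where it binds DNA at paired sites and raises a set of target genes, and it also lowers many inflammatory genes by acting on other transcription factors. In brain endothelial cells the hormone is known to tighten the barrier and to restrain inflammation. The cultures were grown in a commercial endothelial medium with its supplement kit, and this kit as usually sold contains hydrocortisone, a glucocorticoid. The labels do not list its contents, and hormone levels were not measured. No culture without hormone or with added hormone was analysed here. Whether a level below reflects a response to the hormone therefore cannot be told.

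The libraries held between 12717847 and 18624417 counts assigned to genes, 14276942 to 16603076 in APOE3 and 12717847 to 18624417 in APOE4. The 9 genes had between 707 and 12819 counts in each library. Markers of the labelled cell type were high in sum. The 15 brain endothelial markers summed to between 17502 and 18645 counts per 1000000 counts of the library (CPM) in APOE3. In APOE4 they summed to between 17309 and 19149 CPM. Their levels were uneven, from means of 3.46 CPM in APOE3 and 3.36 CPM in APOE4 for Mfsd2a to 3624 and 3646 CPM for Pecam1. The 7 microglia and macrophage markers summed to at most 0.792 CPM in any library, with P2ry12 and Itgam at 0 in every one, and the 6 oligodendrocyte markers to at most 1.97 CPM. The 6 astrocyte markers summed to between 31.9 and 43.4 CPM, most of it from Gja1. The 10 pericyte and smooth muscle markers summed to between 188 and 354 CPM, most of it from Tagln and Acta2. The 6 fibroblast markers summed to between 8.49 and 77.1 CPM, with Dpt at 0 throughout. The 7 neuron markers summed to between 8.91 and 15.6 CPM. Of the 42 markers of other cell types 14 were tested between genotypes by edgeR, and 0 passed (lowest adjusted p 0.105), with 6 at an unadjusted p under 0.05, 5 of them above 0. Of the endothelial markers 1 passed, the organic anion and thyroid hormone transporter gene Slco1c1, which was lower with APOE4 (log2 fold change -0.31, SE 0.100, edgeR adjusted p = 0.0472).

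With APOE4, 3 of the 9 genes differed from APOE3 and 6 did not pass the test. The metallothionein genes Mt1 and Mt2 were higher, by 1.31-fold and 1.33-fold, and Tsc22d3 was lower, at 0.806 of its APOE3 level. In bulk libraries fewer cells that express a gene and less of its RNA per cell cannot be told apart. The test was the quasi-likelihood test of edgeR, with Benjamini-Hochberg adjusted p-values over the 12481 genes and a threshold of 0.05. In the same test 12.8% of all genes tested were called, 6.71% as higher with APOE4 and 6.09% as lower. The 9 genes had a median log2 fold change of 0.03, against -0.0002 over all genes tested. The APOE3 and APOE4 libraries overlapped at every one of the 9 genes, while they did not overlap at 0.625% of the genes tested.

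**Figure D1:**
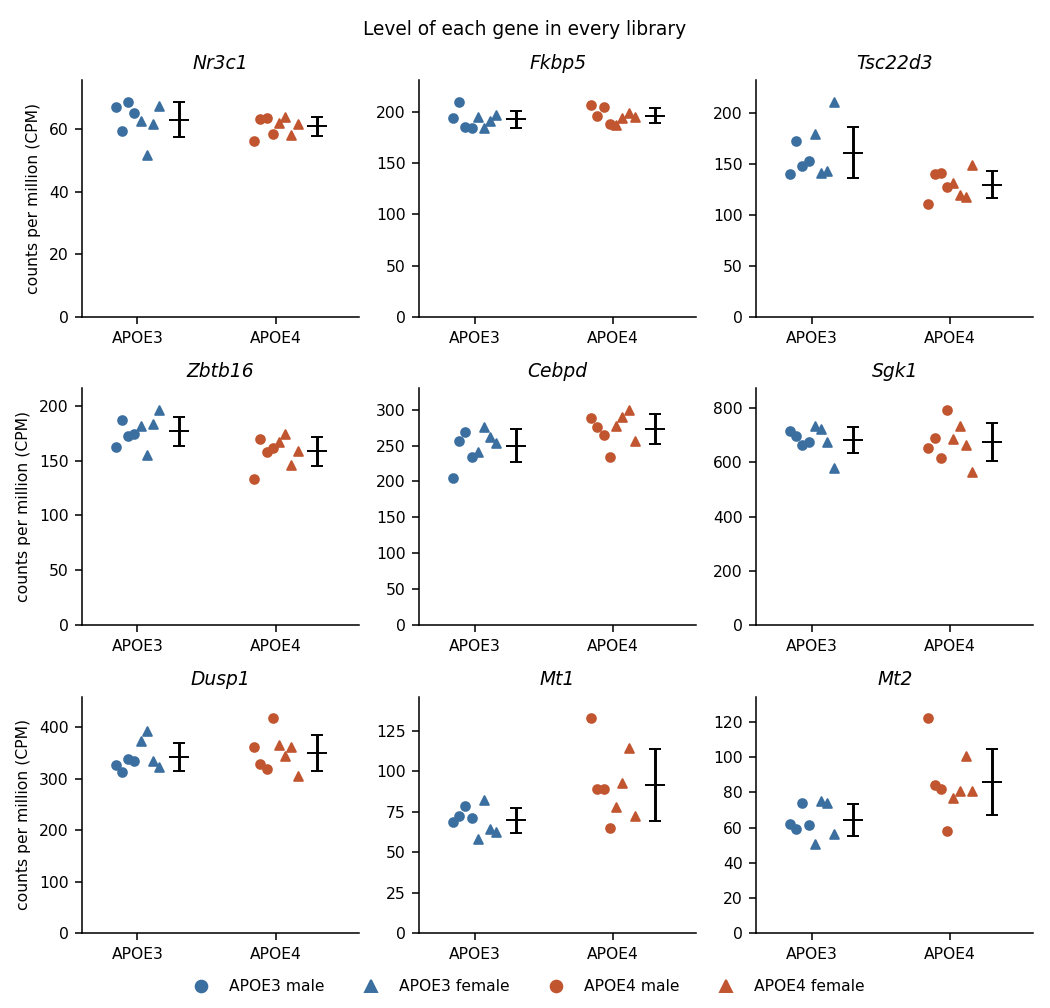
Level of the 9 genes in CPM (vertical axis, from 0) in each of the 8 APOE3 and 8 APOE4 libraries, with circles for males and triangles for females and the mean with its SD beside them. Mt1 and Mt2 sit higher and spread more widely with APOE4, Tsc22d3 sits lower, and the genotypes overlap in each panel.

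The receptor gene Nr3c1 (ENSMUSG00000024431.14, chromosome 18) ranged from 51.7 to 68.8 CPM in APOE3, with a median of 63.9 CPM, and from 56.2 to 64.1 CPM in APOE4, with a median of 61.9 CPM. The lowest value of all belonged to an APOE3 culture, replicate 6, and the APOE4 libraries lay inside the APOE3 range. The log2 fold change was -0.05 (95% interval -0.15 to 0.05, adjusted p = 0.552), so a fall of over 0.15 or a rise of over 0.05 on the log2 scale lies outside the interval.

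Genes for the receptor's partners and for the handling of its hormone were measured at 18 of 20 entries of a list of chaperones, coregulators and enzymes. Of these 1 was higher and 2 were lower with APOE4, where 12.8% of all genes tested were called. The median log2 fold change of the list was -0.03. H6pd, which supplies the reduced cofactor for the hormone-activating enzyme, was higher (log2 fold change 0.34, SE 0.0663, adjusted p = 0.00643). Its level went from 191 ± 20.6 CPM (SD, n = 8) in APOE3 to 242 ± 24.3 CPM (SD, n = 8) in APOE4. The enzyme itself, Hsd11b1, averaged 0.0998 CPM in APOE3 and 0.0747 CPM in APOE4, and Hsd11b2, which inactivates the hormone, averaged 0.376 and 0.373 CPM, so both were below the filter and were not tested. The coactivator genes Ncoa3 and Ncoa2 were lower, with log2 fold changes of -0.20 (adjusted p = 0.0391) and -0.14 (adjusted p = 0.0222). Nr3c2, the related mineralocorticoid receptor gene, stood at 7.58 ± 1.21 CPM in APOE3 and 7.42 ± 1.21 CPM in APOE4 (SD, n = 8 each) and did not pass the test. Fkbp4, the cochaperone that favours hormone binding, had a log2 fold change of -0.13 (adjusted p = 0.0695).

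Fkbp5 (ENSMUSG00000024222.16, chromosome 17) encodes the cochaperone that the receptor induces and that in turn lowers the receptor's affinity for hormone, and its transcript is a common readout of receptor activity. It ran from 184 to 210 CPM in APOE3, with a median of 192 CPM, and from 187 to 206 CPM in APOE4, with a median of 195 CPM. No library stood apart, and the coefficient of variation was 4.43% in APOE3 and 3.55% in APOE4. The genotypes differed by a log2 fold change of 0.03 (SE 0.0325, 95% interval -0.04 to 0.09, adjusted p = 0.624), the narrowest interval among the 9 genes. Fkbp5 was also the steadiest of them within genotypes, with an SD of 0.0573 on the log2 scale, and 23.0% of the 1831 genes within 2-fold of its level had a smaller SD.

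Tsc22d3 (ENSMUSG00000031431.13, chromosome X) encodes the glucocorticoid-induced leucine zipper protein, a mediator of the anti-inflammatory action of the hormone. In APOE3 it ranged from 140 CPM in replicate 1 to 211 CPM in replicate 8, with a median of 151 CPM. In APOE4 it ranged from 111 CPM in replicate 1 to 149 CPM in replicate 8, with a median of 130 CPM. All 8 APOE4 libraries lay below the APOE3 median, and 5 of them lay below every APOE3 library. APOE4 against APOE3 gave a log2 fold change of -0.31 (SE 0.0795, 95% interval -0.48 to -0.15, adjusted p = 0.0169). Leaving out any 1 of the 16 libraries kept the call, with log2 fold changes between -0.34 and -0.25 and adjusted p between 0.00844 and 0.0416.

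Zbtb16 (ENSMUSG00000066687.5, chromosome 9), a zinc finger repressor gene strongly induced by glucocorticoids in many tissues, ranged from 155 to 196 CPM in APOE3, with a median of 178 CPM, and from 134 to 174 CPM in APOE4, with a median of 160 CPM. All 8 APOE4 libraries lay below the APOE3 median, but the ranges overlapped between 155 and 174 CPM. The log2 fold change of -0.16 (SE 0.0532, unadjusted 95% interval -0.267 to -0.0451) missed the threshold (adjusted p = 0.0573). This call turned on the tool and on single libraries. DESeq2's Wald test gave an adjusted p of 0.0387. The edgeR test gave 0.0454 without APOE3 replicate 1, 0.0214 without APOE3 replicate 6, 0.0442 without APOE4 replicate 2 and 0.0470 without APOE4 replicate 6.

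Cebpd (ENSMUSG00000071637.5, chromosome 16), a leucine zipper transcription factor gene of the acute phase and stress responses, ranged from 204 to 275 CPM in APOE3, with a median of 255 CPM, and from 234 to 300 CPM in APOE4, with a median of 276 CPM. The lowest value was APOE3 replicate 1, and 5 of the 8 APOE4 libraries lay above every APOE3 library. Its log2 fold change of 0.13 (SE 0.0567, unadjusted 95% interval 0.0122 to 0.248) did not pass the test (adjusted p = 0.132). The same held without any 1 library, with adjusted p between 0.0557 and 0.249. The exons of Cebpd overlap those of Spidr on the other strand, and 13.7% of the 50-base stretches of its transcripts also occur in Spidr. The strand setting of the counting is not given in the sources used here, so reads of the overlap could be from either gene, though Spidr itself had at most 321 counts in a library while Cebpd had at least 3272.

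Sgk1 (ENSMUSG00000019970.15, chromosome 10), the serum- and glucocorticoid-regulated kinase gene, ranged from 578 to 733 CPM in APOE3, with a median of 685 CPM, and from 565 to 793 CPM in APOE4, with a median of 674 CPM. The lowest library of each genotype was replicate 8, and the highest value of all was APOE4 replicate 4. Between genotypes the log2 fold change was -0.01 (95% interval -0.14 to 0.11, adjusted p = 0.901), and its sign turned when single libraries were left out.

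Dusp1 (ENSMUSG00000024190.6, chromosome 17) encodes a phosphatase that switches off MAP kinases and is one of the ways in which glucocorticoids restrain inflammatory signalling. It ranged from 313 to 392 CPM in APOE3, with a median of 334 CPM, and from 305 to 417 CPM in APOE4, with a median of 352 CPM. Replicates 8 and 4 of APOE4 gave the lowest and highest values of all, so the APOE4 range enclosed the APOE3 range. The log2 fold change was 0.03 (95% interval -0.09 to 0.15, adjusted p = 0.737). An exon of Ergic1 overlaps Dusp1 on the other strand, with up to 1758 counts assigned to Ergic1, but the transcripts of Dusp1 shared no 50-base stretch with another gene's transcripts.

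The metallothioneins Mt1 and Mt2 are small cysteine-rich proteins that bind zinc and copper, and their neighbouring genes are raised both by metals and by glucocorticoids. Because they moved together, the stretches before their starts are shown, as given by RefSeq for the GRCm38.p6 build: 250 bases up to the base before the start, on the plus strand, at chr8:94178839-94179088 for Mt1 and at chr8:94172368-94172617 for Mt2. Capitals mark matches on either strand to the metal response element core (TGCACNC or TGCGCNC) and to the palindromic glucocorticoid response element (GNACANNNTGTNC).
Mt1: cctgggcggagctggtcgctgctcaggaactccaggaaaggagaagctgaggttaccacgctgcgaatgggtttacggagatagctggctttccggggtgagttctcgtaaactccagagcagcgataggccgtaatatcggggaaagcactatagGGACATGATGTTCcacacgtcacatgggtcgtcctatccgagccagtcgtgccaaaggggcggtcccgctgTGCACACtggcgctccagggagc
Mt2: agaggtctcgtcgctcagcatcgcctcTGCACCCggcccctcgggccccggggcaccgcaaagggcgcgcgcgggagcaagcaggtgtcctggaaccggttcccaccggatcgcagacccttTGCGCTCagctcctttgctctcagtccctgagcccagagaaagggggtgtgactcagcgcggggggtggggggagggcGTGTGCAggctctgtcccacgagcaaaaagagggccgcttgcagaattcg
The Mt1 stretch held 1 match to the glucocorticoid response element, GGACATGATGTTC, from base -94 to base -82 before the start, and 1 match to the metal response element core. The Mt2 stretch held 3 matches to the metal response element core and none to the glucocorticoid response element. Its RefSeq start lies 46 bases before the start of the gene in GENCODE M21, so this window sits further upstream of the annotated gene than that of Mt1. Across all 32851 starts in the RefSeq table, 0.387% of the stretches of the same length held the glucocorticoid response element and 21.4% held a metal response element core. Of the other members, Fkbp5, Tsc22d3, Sgk1 and Dusp1 had entries in the table, 6 members and 13 starts in all with Mt1 and Mt2, and Nr3c1, Zbtb16 and Cebpd did not. At 1 of the 6 starts Sgk1 had the glucocorticoid response element, as GAACAGAATGTTC from base -188 to base -176, and Dusp1 had the cyclic AMP response element TGACGTCA, which 1.55% of all stretches held. The matches describe letters in these windows and were not tested for binding. Bases outside the windows were not searched, so the matches do not give the number of sites at a gene.

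Mt1 (ENSMUSG00000031765.8, chromosome 8) ranged from 58.5 CPM in replicate 5 to 82.0 CPM in replicate 6 of APOE3, with a median of 69.7 CPM. In APOE4 it ranged from 64.9 CPM in replicate 4 to 133 CPM in replicate 1, with a median of 89.1 CPM. In APOE4, 7 of 8 libraries lay above the APOE3 median and 5 lay above every APOE3 library. On the log2 scale the fold change was 0.39 (SE 0.114, 95% interval 0.16 to 0.63, adjusted p = 0.0298). The call did not survive the loss of some libraries: adjusted p was 0.0670 without APOE3 replicate 5, 0.0599 without APOE3 replicate 8, 0.0552 without APOE4 replicate 1 and 0.0719 without APOE4 replicate 7, and the log2 fold change stayed between 0.30 and 0.45 in all 16 such fits.

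Mt2 (ENSMUSG00000031762.7, chromosome 8) ranged from 50.8 CPM in replicate 5 to 74.8 CPM in replicate 6 of APOE3, with a median of 61.8 CPM, and from 58.2 CPM in replicate 4 to 122 CPM in replicate 1 of APOE4, with a median of 81.2 CPM. Apart from replicate 4, the APOE4 libraries lay above every APOE3 library, 7 of 8. The log2 fold change was 0.42 (SE 0.112, 95% interval 0.18 to 0.65, adjusted p = 0.0214), and 1 of the 16 fits without a library lost the call, that without APOE4 replicate 7 (adjusted p = 0.0520). The transcripts of Mt2 share 45.8% of their 50-base stretches with the antisense transcript Gm45774, which has no row in the count table, so antisense reads counted for Mt2 could not be told apart. Both metallothioneins varied more between cultures of 1 genotype than most genes of their level, with an SD of 0.265 for Mt1 and 0.261 for Mt2 on the log2 scale, against medians of 0.0854 and 0.0870 over genes within 2-fold of their level. In the metallothionein family, Mt3 averaged 0.183 CPM in APOE3 and 0.0915 CPM in APOE4 and Mt4 was at 0 in every library, so neither was tested.

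A further list held 25 other genes that glucocorticoids raise in many tissues, of which 24 were tested. With APOE4, 7 were lower and 1 was higher, where 6.09% of all genes tested were called lower and 6.71% higher. The median log2 fold change of the list was -0.12. The lower genes with the largest differences were Klf15, a transcription factor gene of metabolic control, at 30.9 ± 7.18 CPM in APOE3 and 21.8 ± 2.34 CPM in APOE4 (log2 fold change -0.50, adjusted p = 0.0115), Ddit4, an inhibitor of mTOR signalling (-0.35, adjusted p = 0.0148), and Map3k6, a stress kinase gene (-0.33, adjusted p = 0.0154). Lcn2, a siderophore-binding protein gene that inflammatory signals also induce, was the 1 gene that was higher, at 392 ± 69.1 CPM in APOE3 and 574 ± 90.1 CPM in APOE4 (SD, n = 8 each; log2 fold change 0.55, adjusted p = 0.00614). Of the 24 genes, 19 had a log2 fold change below 0 and 5 above 0, whereas over all genes tested 6249 were below 0 and 6232 above. The list was chosen with earlier results of these data known, so these counts are a description and no independent support. They were not tested.

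The next list held genes that glucocorticoids lower. Of its 16 genes 12 were tested, and 4 were higher and 1 was lower with APOE4. Of all genes tested 6.71% were called higher and 6.09% lower. The median log2 fold change of the list was 0.19. The higher genes were the neutrophil chemokine genes Cxcl2 (log2 fold change 0.69, adjusted p = 0.0178) and Cxcl1 (0.65, adjusted p = 0.0232), the monocyte chemokine gene Ccl2 (0.55, adjusted p = 0.0359) and the leukocyte adhesion gene Vcam1 (0.43, adjusted p = 0.00423). Cxcl2 averaged 4.59 ± 1.22 CPM in APOE3 and 7.43 ± 2.23 CPM in APOE4, and Ccl2 149 ± 39.5 and 219 ± 70.4 CPM (SD, n = 8 each). Nos2, the inducible nitric oxide synthase gene, named after its value was seen because it was the 1 lower gene, had a log2 fold change of -0.31 (adjusted p = 0.0414). The cytokine gene Il1b was at 0 in every library. This list, too, was chosen with earlier results of these data known, and its counts were not tested.

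**Figure D2:**
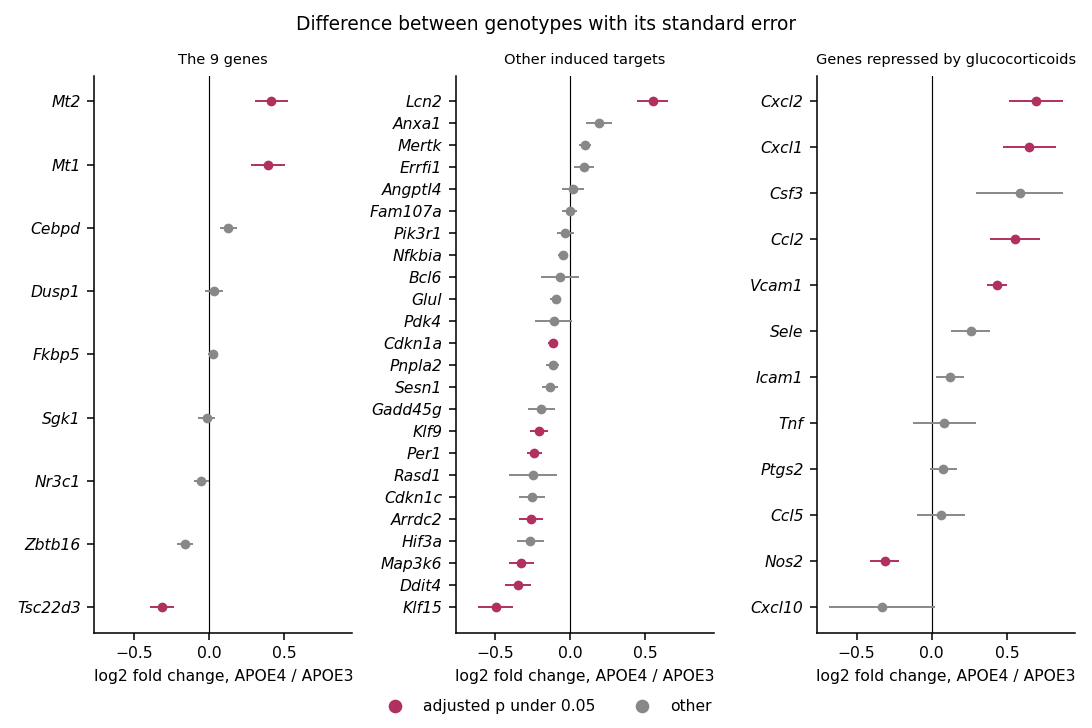
Log2 fold change of APOE4 against APOE3 (horizontal axis, bars of 1 standard error) for the 9 genes, the 24 tested genes of the list raised by glucocorticoids and the 12 tested genes of the list lowered by them, with genes of adjusted p under 0.05 in red. On the raised list 19 of 24 points lie below 0, and on the lowered list 10 of 12 lie above 0. Over all genes tested 6249 lay below 0 and 6232 above. Both lists were chosen with earlier results of these data known, and these counts were not tested.

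Relatives and partner pathways of the 9 genes were read in the same fit, which called 12.8% of all genes tested. The calls among the family relatives and the immediate early genes were near that share. Of 24 family relatives 22 were tested, none was higher and 3 were lower with APOE4: the phosphatase genes Dusp4 (log2 fold change -0.41, adjusted p = 0.0166) and Dusp6 (-0.12, adjusted p = 0.0485) and Tsc22d1 (-0.25, adjusted p = 0.0102), which shares the leucine zipper domain of Tsc22d3. Of 8 genes of the metal response 7 were tested, and 4 were lower and 1 was higher with APOE4. The list mixes transporters, enzymes and a transcription factor, so its counts give no direction of the metal response. Whether metals played a part in Mt1 and Mt2 was not tested. The zinc exporter gene Slc30a1, which is raised by zinc through the same factor as the metallothioneins, was lower with APOE4, at means of 339 CPM in APOE3 and 264 CPM in APOE4 (n = 8 each; log2 fold change -0.36, SE 0.0991, adjusted p = 0.0236). Gclc, for glutathione synthesis, Slc39a10, a zinc importer, and Hmox1, heme oxygenase, were lower by 0.26, 0.22 and 0.20 on the log2 scale. Mtf1, the zinc-sensing transcription factor gene, named after its value was seen because it was the 1 higher gene, had a log2 fold change of 0.16 (adjusted p = 0.0135). Of 16 immediate early genes, which respond within minutes to handling and growth factors as Dusp1 does, Ier3 was higher (0.18, adjusted p = 0.0188) and Ier2 was lower (-0.19, adjusted p = 0.0469), while 12 of the 16 lay below 0 and the median log2 fold change was -0.16.

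Cell cycle genes moved with these results. Of 38 on the list, 33 were higher with APOE4 and 0 were lower. Of all genes tested 6.71% were called higher and 6.09% lower. The median log2 fold change of the list was 0.57, and the largest were Hmmr (0.86), Cenpe (0.82), Ccnb2 (0.82) and Cenpf (0.79), all genes of mitosis. Their mean log2 CPM in a library, called the cell cycle score, ranged from 4.97 to 5.95 in APOE3, with a median of 5.43, and from 5.67 to 6.43 in APOE4, with a median of 5.94. The scores of the genotypes overlapped between 5.67 and 5.95. The score is a measure of RNA and not of cell division. For confluent cultures of both genotypes, the paper reported no difference in cell density. It also found none in the share of nuclei with bromodeoxyuridine, a label of newly made DNA, which was low.

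Within genotypes, 4 of the 9 genes followed the cell cycle score. Deviations from the genotype mean over the 16 libraries were used, with a permutation test of 100000 resamples within genotype and adjustment over the 9 genes. Tsc22d3 was lower where the score was higher (Pearson's r = -0.86, p = 5.00e-05, adjusted p = 0.000450; Spearman's rho = -0.92, p = 3.00e-05, adjusted p = 0.000270). Zbtb16 behaved likewise (r = -0.78, p = 0.000850, adjusted p = 0.00241; rho = -0.75, p = 0.00179, adjusted p = 0.00546). Mt1 was higher where the score was higher (r = 0.71, p = 0.000710, adjusted p = 0.00241; rho = 0.64, p = 0.00841, adjusted p = 0.0189), and so was Mt2 (r = 0.73, p = 0.00107, adjusted p = 0.00241; rho = 0.74, p = 0.00182, adjusted p = 0.00546). Without the 2 libraries farthest from the median of each gene, r was -0.80 for Tsc22d3, -0.66 for Zbtb16, 0.57 for Mt1 and 0.60 for Mt2. In males r was -0.79, -0.85, 0.66 and 0.67 for these 4 genes, and in females -0.89, -0.75, 0.79 and 0.89. Such relations were common in these libraries: 3.37% of all genes tested had an r at least as far from 0 as that of Tsc22d3, 7.11% as that of Zbtb16, 11.8% as that of Mt1 and 10.4% as that of Mt2. Nr3c1 missed the threshold (r = -0.58, p = 0.0295, adjusted p = 0.0532; rho = -0.40, p = 0.149, adjusted p = 0.192), and its r was -0.15 without the 2 farthest libraries. Cebpd (r = 0.40, adjusted p = 0.191; rho = 0.50, adjusted p = 0.102), Dusp1 (r = 0.39, adjusted p = 0.191; rho = 0.47, adjusted p = 0.102), Sgk1 (r = 0.23, adjusted p = 0.439; rho = 0.08, adjusted p = 0.764) and Fkbp5 (r = -0.16, adjusted p = 0.589; rho = -0.30, adjusted p = 0.307) did not pass either.

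**Figure D3:**
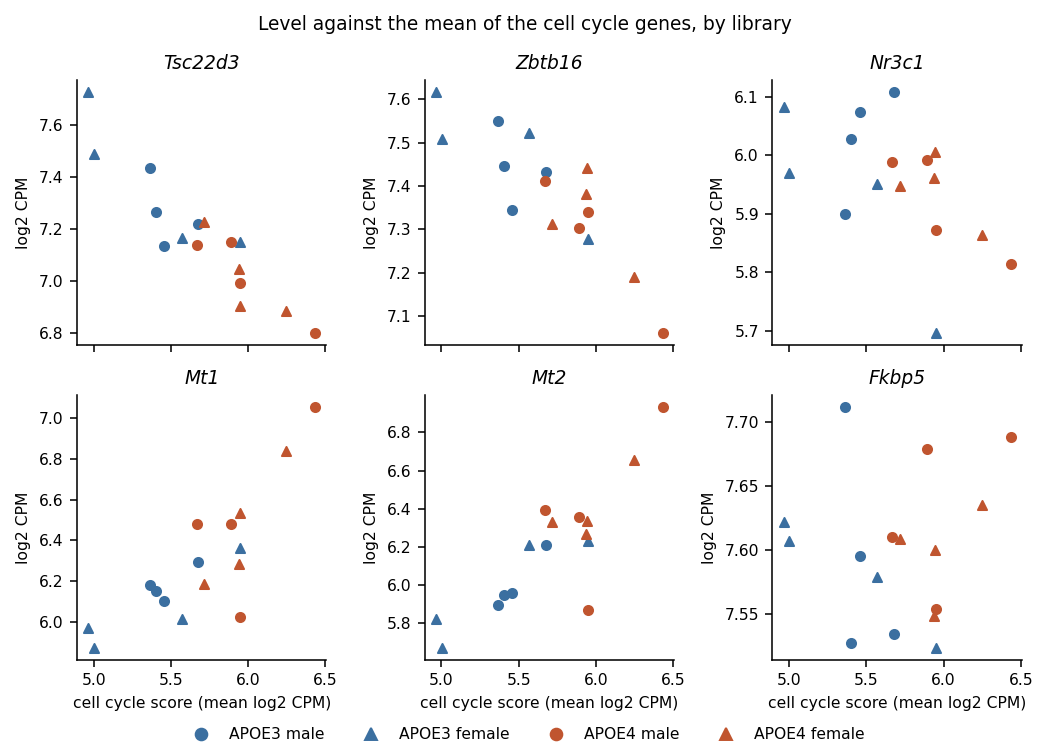
Log2 CPM of 6 of the genes (vertical axes) against the cell cycle score, the mean log2 CPM of 38 cell cycle genes (horizontal axis), in 8 APOE3 (blue) and 8 APOE4 (orange) libraries, with circles for males and triangles for females. Within each genotype Tsc22d3 and Zbtb16 run down and Mt1 and Mt2 run up with the score. Fkbp5 has no common direction, with r = -0.54 in APOE3 and 0.45 in APOE4, a contrast that was not tested.

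When the score was a covariate in the edgeR fit, none of the 9 genes and none of the 12481 genes tested was called between genotypes, and 908 genes had an unadjusted p under 0.05. The log2 fold change was then -0.01 (SE 0.0609) for Tsc22d3, 0.02 (SE 0.111) for Mt1 and 0.05 (SE 0.104) for Mt2, each less than its standard error. That of Zbtb16 was 0.01 (SE 0.0522), with the sign turned. That of Fkbp5 was 0.04 (SE 0.0454). DESeq2 and limma voom were not run with this covariate. Since the scores of the genotypes overlapped only in part, the 2 terms cannot be fully told apart in this fit.

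**Figure D4:**
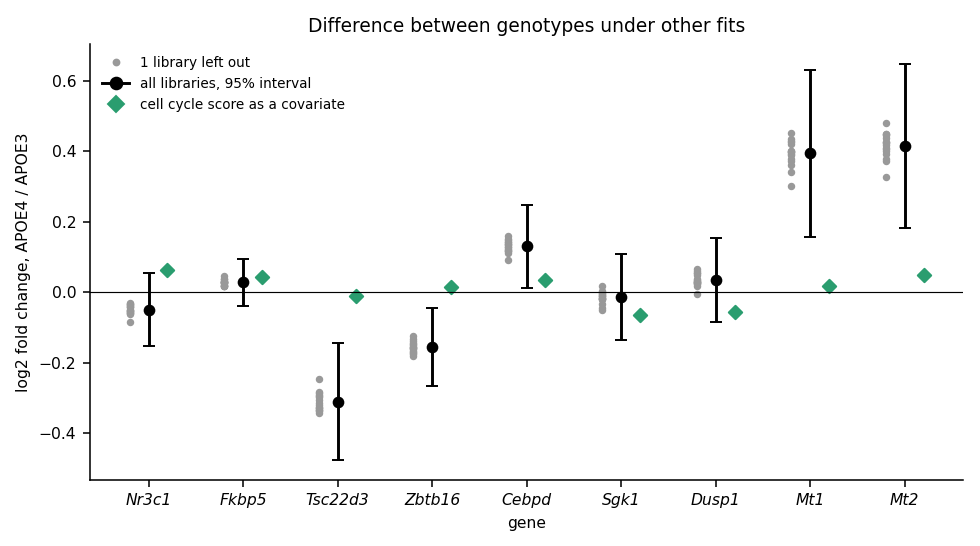
Log2 fold change of APOE4 against APOE3 (vertical axis) for the 9 genes from all libraries with its 95% interval (black), with 1 library left out in turn (grey, 16 points a gene) and with the score as a covariate (green diamonds). The grey points of Tsc22d3, Mt1 and Mt2 stay on 1 side of 0, and the diamonds of these genes lie at -0.01, 0.02 and 0.05.

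None of the 9 genes differed between the sexes with genotype as a covariate (lowest adjusted p 0.9997), where 0.0721% of all genes were called. The genotype difference did not differ between the sexes at any of the 9 genes by edgeR (adjusted p = 0.9999 for each, lowest unadjusted p 0.166 for Dusp1), and 0.00% of all genes were called, with 345 at an unadjusted p under 0.05. Limma voom with sample quality weights called 0 genes as well, with 518 at an unadjusted p under 0.05 and 0 of the 9 genes among them. Tsc22d3 had a log2 fold change of -0.24 (SE 0.114) in males and -0.38 (SE 0.114) in females, Mt1 of 0.37 (SE 0.167) and 0.42 (SE 0.168), and Mt2 of 0.43 (SE 0.167) and 0.41 (SE 0.167). The log2 fold changes had opposite signs in males and females for Nr3c1 (-0.11, SE 0.0713, and 0.01, SE 0.0713), Dusp1 (0.12, SE 0.0803, and -0.05, SE 0.0802) and Sgk1 (0.00162, SE 0.0863, and -0.03, SE 0.0863). With 4 libraries a group in each sex no gene of the 12481 passed the threshold within males or within females, where 1775 and 2428 genes had an unadjusted p under 0.05.

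Among themselves the 9 genes did not vary as 1 block. Of the 36 pairs, 13 had a positive correlation of their deviations from the genotype mean over the 16 libraries, the median r was -0.11, and 1 pair passed the permutation test of Pearson's r after adjustment over the 36 pairs. This pair was Mt1 with Mt2 (r = 0.88, p = 5.00e-05, adjusted p = 0.00180; rho = 0.79, p = 0.000870, adjusted p = 0.0313). Without the 2 libraries farthest from the median of Mt1 its r was 0.78, and it was 0.98 in males and 0.75 in females. By Spearman's rho Cebpd with Mt1 passed as well (rho = 0.72, p = 0.00244, adjusted p = 0.0439; r = 0.59, adjusted p = 0.0601). Tsc22d3 with Zbtb16 (r = 0.65, p = 0.00672; rho = 0.63, p = 0.0142) and Sgk1 with Dusp1 (r = 0.69, p = 0.00604; rho = 0.54, p = 0.0470) each had an adjusted p of 0.0601 for r. The metallothioneins and the pair of Tsc22d3 and Zbtb16 tended to opposite sides of their means, with r between -0.55 and -0.66 for the 4 pairs of Mt1 and Mt2 with Tsc22d3 and Zbtb16 and adjusted p from 0.0601 to 0.0698. When the mean of each genotype and sex was removed, 3 pairs passed, Cebpd with Mt1 (r = 0.74, adjusted p = 0.00468) and Cebpd with Mt2 (r = 0.69, adjusted p = 0.0398) beside Mt1 with Mt2 (r = 0.89, adjusted p = 0.00468). By Spearman's rho the adjusted p of these pairs was 0.00108, 0.0836 and 0.0124.

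**Figure D5:**
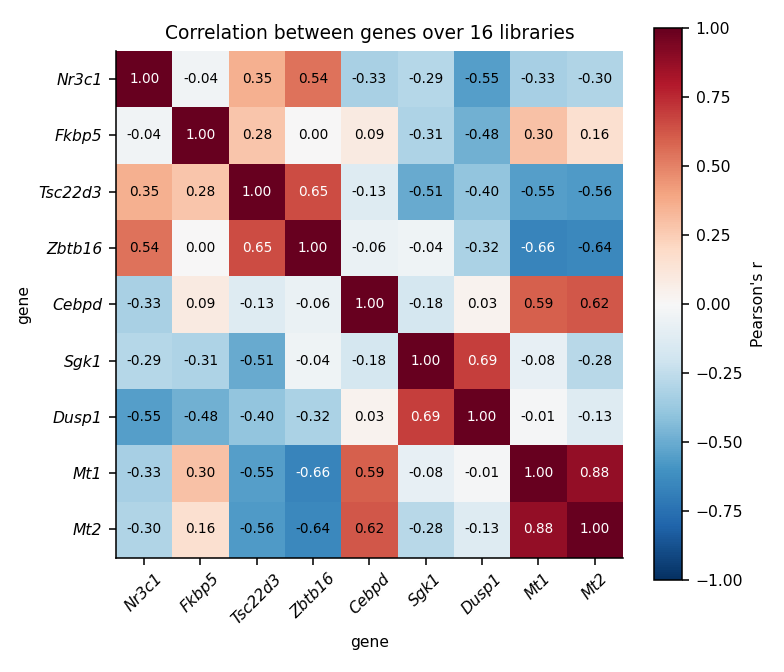
Pearson's r between each pair of the 9 genes, from deviations of log2 CPM from the genotype mean over 16 libraries, in red above 0 and blue below 0. The darkest square off the diagonal is Mt1 with Mt2 at 0.88, and the receptor gene Nr3c1 and Fkbp5 stand at -0.04.

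The genes whose level was most like each member were read over the 16 libraries, from deviations from the mean of each genotype and sex, as a description without a test. Mt1 was the second most like Mt2 of 12480 genes (r = 0.89), behind Rnf113a2 (r = 0.90) and just before Apmap (r = 0.89). Closest to Mt1 were Rtel1 (r = 0.91), Dnajc10 (r = 0.91) and B9d1 (r = 0.90), with Mt2 at rank 5. Tsc22d3 was matched most closely by the amino acid transporter gene Slc7a5, by Vsir and by Ppp2r5a, each at r = 0.97, and of these Slc7a5 (log2 fold change -0.48, adjusted p = 0.0167) and Ppp2r5a (-0.37, adjusted p = 0.0106) were lower with APOE4. Zbtb16 was nearest to Nek9 (r = 0.95), the cell cycle inhibitor gene Cdkn2b (r = 0.92) and Kdm4b (r = 0.92), and Sgk1 to the vasoconstrictor gene Edn1 (r = 0.96), Fzd1 (r = 0.90) and Rgs2 (r = 0.90). Lcn2, which was higher with APOE4, was the second most like Cebpd (r = 0.86), between Efhc2 (r = 0.88) and Smpd3 (r = 0.85). Dusp1 was nearest to Rexo5 (r = 0.89), Tnfaip8 (r = 0.88) and Mrrf (r = 0.86), with Sgk1 at rank 40, and genes near to Fkbp5 included Lonrf3 (r = 0.90) and Pygm (r = 0.81). Nr3c1 was nearest to an unnamed gene, ENSMUSG00000103283.2 (r = 0.89), to Gimap6 (r = 0.89) and to its own coactivator gene Ncoa3 (r = 0.87).

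The levels of the genes were set against each other per kilobase (kb) of exon, since longer transcripts give more counts. Sgk1 was highest, at 138 ± 11.9 CPM per kb (SD, n = 16), followed by Mt2 at 127 ± 30.6 and Dusp1 at 104 ± 9.18 CPM per kb, and the ranges of these neighbours overlapped. Cebpd at 69.8 ± 6.52, Mt1 at 64.7 ± 15.9, Tsc22d3 at 33.6 ± 5.80 and Zbtb16 at 31.7 ± 3.01 CPM per kb came next, again with overlapping ranges between neighbours, while Dusp1 and Cebpd were separate in every library. Fkbp5 at 20.5 ± 0.820 CPM per kb was separate from Zbtb16 above it, and the receptor gene Nr3c1 at 8.07 ± 0.579 CPM per kb was lowest and separate from Fkbp5. The length used decides part of this order. With the length of the principal transcript, an alternative chosen after the values were seen, Mt1 stood at 147 and Mt2 at 146 CPM per kb, ranks 3 and 4 of the 9, with Sgk1 at 276 CPM per kb still first and Nr3c1 at 9.63 CPM per kb still last. On that length Fkbp5 at 50.3 CPM per kb stood above Zbtb16 at 32.8 CPM per kb, so their order turned, and Tsc22d3 at 73.8 stood above Cebpd at 69.8 CPM per kb.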

How the data were processed

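Total RNA of each culture (100 ng) was made into poly-A selected, strand-selected libraries with 17 PCR cycles and read as paired 50-nt reads. The authors deposited 1 table of raw counts per gene; the submitters' processing notes name STAR and featureCounts and the builds mm10 and hg38, without versions. The annotation and the strand setting of the counting are not given in the sources used here. Groups came from the genotype label. Each of the 16 columns was matched to its sample, and none was left over. Of 39056 mouse identifiers, 38872 were in GENCODE M21, and human APOE was the other row.

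Counts were filtered with filterByExpr by genotype, scaled by TMM and tested with edgeR 4.0.16 (glmQLFit and glmQLFTest, R 4.3.3; limma 3.58.1), with genotype as the single term. CPM use the TMM library size, and log2 CPM a prior count of 2. The design allowed no term for a batch, since none is named. Separate mice gave separate cultures, so the p-values measure the spread between animals and cultures. Correlations used a two-sided permutation test within genotype. The fit and the correlations were tested on simulated data. Alternatives were DESeq2 1.42.0, limma voom, other scalings and filters, covariates (sex, 1 surrogate variable from sva 3.50.0, the cell cycle score) and leaving out each library. Genes named beside the 9 were those of each list with the largest differences among the called, at most 4 a list, a few set genes of hormone handling, and the 3 most like each member, of which 1 is not reported here. The members and lists were chosen with earlier results of these data known.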

Additional observations from a re-analysis of the deposited data

Results flagged for a closer look

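Chance alone flags about 1 group in 20 by a gap of this kind. Among the 9 genes in the 2 genotypes, 1 group had a library set apart from the others by Dixon's test: Sgk1 in APOE3, where replicate 8 at 578 CPM lay below the others, which ran from 663 to 733 CPM, with a gap of 0.547 of the whole range. The same library had the highest Tsc22d3 and Zbtb16 of all (211 and 196 CPM) and the lowest cell cycle score (4.97). Without it the log2 fold change of Sgk1 was -0.05 (edgeR adjusted p = 0.644).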

How the results depend on the processing

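Scaling by DESeq2 size factors or the upper quartile, other filters on low counts, sex or 1 surrogate variable as a covariate and limma voom each called the same 3 of the 9 genes, Tsc22d3, Mt1 and Mt2, and DESeq2's Wald test added Zbtb16. When the cell cycle score was a covariate, 0 genes and 0 of the 9 were called, and the signs of Nr3c1 (0.0619), Zbtb16 (0.0142) and Dusp1 (-0.0559) turned. Leaving out 1 library gave 846 to 2127 called genes and 1 to 4 called members. The fewest members, 1, came without APOE4 replicate 7, and the fewest genes were called without APOE4 replicate 7 (846), APOE3 replicate 5 (853) or APOE3 replicate 8 (952). In these fits the log2 fold change of Sgk1 ran from -0.0513 to 0.0183 and that of Dusp1 from -0.00539 to 0.0655. The correlations between members went from 1 called pair to 3 when genotype and sex means were removed. The rank of a level per length moved for 7 of the 9 genes with the principal transcript's length. No paired analysis was possible because the labels pair no samples across genotypes. The replicate numbers used here follow the order of the samples within a genotype and pair nothing.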
